A study of Mus musculus with 28 samples.

Results

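TN-401 at its high dose was compared with vehicle in the right ventricle (RV) of mice that had lost Pkp2 in their cardiomyocytes. The libraries were chosen by their titles, and they were 7 of the 28 libraries of the series. Treated knockout mice gave 3 RV libraries (6E13 RV, animals 250, 631 and 645), and vehicle-treated knockout mice gave 4 (cKO RV, animals 177, 180, 257 and 264). All 7 animals were of the C57BL6 strain and carried αMyHC-Cre-ER(T2) and Pkp2 fl/fl. All were given tamoxifen, so that both groups shared the deletion of Pkp2. The αMyHC promoter drives Cre in cardiomyocytes, which leaves Pkp2 in the other cells of the heart. TN-401 is an AAV9 vector that codes for human PKP2 under a cardiac troponin T promoter, and the 6E13 mice had received 6E13 vg/kg (vector genomes per kilogram of body weight) by retro-orbital injection in the week before tamoxifen. The cKO mice had received the vehicle, the buffered salt solution HBSS. Where a WT level is given, it came from 3 RV libraries of Pkp2 fl/fl littermates without Cre that had received HBSS (animals 636, 637 and 647). The mice were 3 to 10 months old, and the age of each animal was not used here. Hearts were collected 9 weeks after tamoxifen. The labels do not give that time for single hearts, and cKO mice of this model die early, so whether every cKO heart was taken at that time was not tested.

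Plakophilin 2, the product of Pkp2, sits on the inner face of the desmosome, where it ties the desmosomal cadherins to desmoplakin and the desmin filaments. Desmosomes, adherens junctions and gap junctions together form the intercalated disc, which joins cardiomyocytes end to end. Loss-of-function variants of human PKP2 are a leading cause of arrhythmogenic right ventricular cardiomyopathy, a disease of ventricular arrhythmia, RV dilatation and replacement of muscle by fibrous tissue and fat. The RV comparison therefore concerns the chamber for which the disease is named.

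Counts were estimated per gene by Salmon, and levels are given below as CPM, which are counts scaled to a common library size after TMM (trimmed mean of M values) normalization. CPM does not correct for transcript length, so levels are compared between libraries and not between genes. Total counts were 25840670 to 31331770 in 6E13 RV and 19364764 to 23726851 in cKO RV, and 16401 to 17436 genes had at least 5 counts in these 7 libraries. The human transgene had 466, 305 and 295 CPM in 6E13 RV, against 0, 0, 0 and 0 CPM in cKO RV. The transgene was also at 0 counts in the 3 WT libraries. Against a floor of 3 counts per library, the lowest treated library was at least 2283-fold above the cKO libraries. Mouse Pkp2 (chr16:16031144-16090586, GRCm39) had 43.7, 43.3 and 34.7 CPM in 6E13 RV, against 30.2, 38.9, 30.9 and 37.7 CPM in cKO RV. These groups overlapped (log2 0.24 ± 0.13, adjusted p = 0.207), and the treated level was below WT (115 ± 6.004 CPM in WT RV, SD, n = 3; log2 -1.51 ± 0.14, adjusted p = 0.000654). Esr1, the receptor gene whose ligand-binding part is also in the Cre-ER(T2) transgene, had 3.56, 3.87 and 4.37 CPM in 6E13 RV, against 6.12, 7.24, 8.35 and 10.5 CPM in cKO RV. Esr1 fell by 1.03 ± 0.22 on the log2 scale (SE, adjusted p = 0.00638), and with transcript length offsets it did not pass the test (log2 -0.29, adjusted p = 0.600). Nor did it pass under limma on log2(TPM + 1) with each library centred on its median (log2 -0.11, adjusted p = 0.696). The ventricular light chain Myl2 was between 986 and 4128 CPM in these 7 libraries.

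Some cKO libraries stood apart. The atrial light chain Myl7 had 0, 0 and 0.353 CPM in 6E13 RV, against 2.19, 87.9, 47.3 and 0.0386 CPM in cKO RV. Libraries 180 and 257 were thus high, and results that rest on atrial genes are given with and without them. The TMM factors were 0.876 to 1.01 in 6E13 RV and 1.09 to 1.51 in cKO RV, with the highest factor in cKO 177. In bulk tissue, fewer cells of a type and less RNA per cell cannot be told apart, and this holds for every level below.

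Of 17307 genes tested, 3825 differed between 6E13 RV and cKO RV at an adjusted p under 0.05, which is 22.1%. Genes higher in 6E13 RV numbered 1945 (11.2%), and genes lower in 6E13 RV numbered 1880 (10.9%). By more than 4-fold, 120 genes were higher and 249 were lower. Counts of list members called below stand against the shares over all genes. The test was edgeR's quasi-likelihood test with Benjamini-Hochberg adjustment over all genes, fitted on the 12 RV libraries of the series, which include 2 of the lower TN-401 dose. All log2 fold changes below are 6E13 over cKO with their standard error (SE), unless WT is named. The split between directions depended on the scaling. limma on log2(TPM + 1) called 6806 genes, 432 higher and 6374 lower, with a median of -0.37 over all genes on that scale, so that 6.35% of its calls were higher against 50.8% in the main test. With each library centred on its median, an alternative chosen after seeing the data, limma called 2959 higher and 1737 lower. In the main test the median over all genes was -0.041. Leaving out single libraries moved the count to between 2039 (without 6E13 645) and 3989 (without cKO 180), and it was 2364 without 6E13 631. Without the 2 cKO libraries rich in Myl7, 2227 were higher and 1911 were lower.

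The treated RV had more transcript of many ion channels, sarcomere proteins, calcium-handling proteins, mitochondrial enzymes and interferon-inducible GTPases, and less transcript of most collagens, matrix proteins, TGF-beta and Wnt modulators, 16 of 35 chemokine, complement and innate sensor genes and the slow myosin Myh7. Among the 15 largest rises with no overlap between the groups were Itgb6, Ces1d, Scn4b, Lrrc15, Acta1, Mylk4, Myh7b, Ky, Efnb3, Cxcl9, Lrrc14b, Lmod3 and Apol10b. The interferon-inducible GTPase-like genes Gm4841 and F830016B08Rik were the other 2. The 15 largest falls were those of Bmp10, Myl4, Comp, Serpina3n, Hp, Ptx3, Angptl7, Mmp3, Ahsg, Fmod, Dkk3, Wisp2, Clca1, Adamtsl2 and Prg4. No overlap between the groups was the rule for this choice, and 5554 of all genes tested (32.1%) had none.

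**Figure D1:**
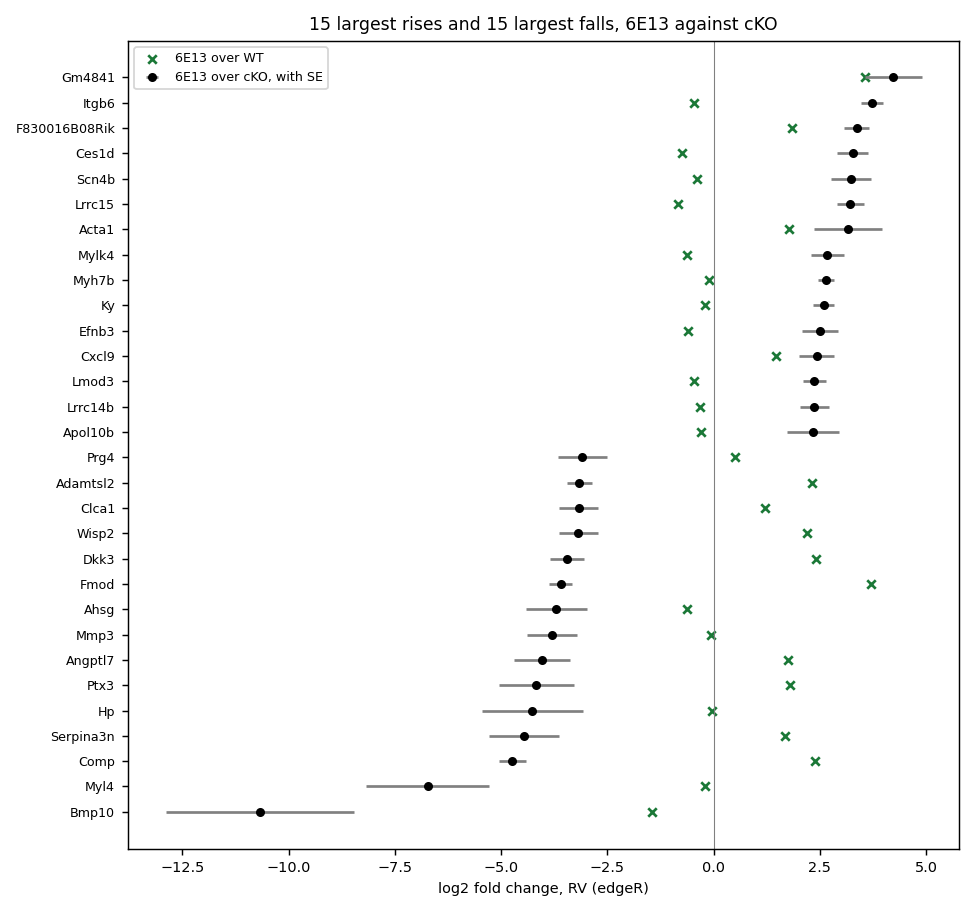
Log2 fold change in the RV (x axis) of the 15 largest rises and 15 largest falls between 6E13 and cKO; black points are 6E13 over cKO with the SE as bars, and green crosses are 6E13 over WT. Bmp10 and Myl4, at -10.67 and -6.73, have the widest bars among the falls, and the crosses of Itgb6 (-0.46), Ky (-0.20) and Myh7b (-0.11) lie near 0.

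Itgb6, the beta subunit of an integrin that activates latent TGF-beta, had 30.3, 34.5 and 34.99 CPM in 6E13 RV, against 2.46, 1.64, 4.14 and 1.70 CPM in cKO RV. Itgb6 rose by 3.73 ± 0.26 on the log2 scale (SE, adjusted p = 4.53e-05). Its treated level was near that of WT (45.8 ± 4.54 CPM in WT RV, SD, n = 3). Myh7b, a slow myosin heavy chain gene, had 42.0, 47.2 and 53.9 CPM in 6E13 RV, against 8.03, 7.67, 8.71 and 6.22 CPM in cKO RV. Myh7b rose by 2.64 ± 0.19 on the log2 scale (SE, adjusted p = 5.8e-05). Ky encodes kyphoscoliosis peptidase, a muscle enzyme of the Z-disc, and had 24.9, 24.6 and 33.8 CPM in 6E13 RV, against 5.67, 3.19, 6.51 and 2.97 CPM in cKO RV. Ky rose by 2.59 ± 0.25 on the log2 scale (SE, adjusted p = 0.000146). Lmod3, an actin nucleator of thin filaments, had 45.6, 73.6 and 59.5 CPM in 6E13 RV, against 14.2, 16.02, 9.20 and 6.76 CPM in cKO RV. Lmod3 rose by 2.37 ± 0.28 on the log2 scale (SE, adjusted p = 0.000316). Each of these genes was called under all 23 alternatives.

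Efnb3, a membrane-bound ephrin ligand, had 50.8, 56.6 and 95.2 CPM in 6E13 RV, against 3.14, 16.02, 14.2 and 14.5 CPM in cKO RV. Efnb3 rose by 2.5 ± 0.42 on the log2 scale (SE, adjusted p = 0.00189), with cKO 177 far below the other cKO libraries. Ces1d, a carboxylesterase that hydrolyses triglycerides, had 24.7, 39.5 and 49.96 CPM in 6E13 RV, against 4.10, 6.59, 2.07 and 3.13 CPM in cKO RV. Ces1d rose by 3.27 ± 0.36 on the log2 scale (SE, adjusted p = 0.000259). Among the falls, Prg4 (lubricin, a mucin-like glycoprotein) had 8.61, 10.98 and 6.71 CPM in 6E13 RV, against 21.9, 67.6, 54.2 and 156 CPM in cKO RV. Prg4 fell by 3.09 ± 0.57 on the log2 scale (SE, adjusted p = 0.00314), to near WT (6.24 ± 2.60 CPM in WT RV, SD, n = 3), and without cKO 264 it fell by 2.45 on the log2 scale (adjusted p = 0.00393). Ahsg (fetuin-A, a circulating inhibitor of mineral deposits made mainly by the liver) had 0.54, 1.73 and 1.32 CPM in 6E13 RV, against 5.06, 16.2, 15.1 and 25.6 CPM in cKO RV, and fell by 3.70 ± 0.72 on the log2 scale (SE, adjusted p = 0.00437). Dkk3, a secreted protein of the Dickkopf family, had 11.6, 10.1 and 9.50 CPM in 6E13 RV, against 65.5, 181.4, 145 and 65.2 CPM in cKO RV. Dkk3 fell by 3.46 ± 0.40 on the log2 scale (SE, adjusted p = 0.000283), and it remained above WT (log2 2.40 ± 0.43, adjusted p = 0.0343). Dkk3 is also on the atrial marker list, with its highest levels in the 2 Myl7-rich libraries, and without them it fell by 2.65 on the log2 scale (adjusted p = 0.000399).

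Desmosome and intercalated disc genes other than Pkp2 rose in part. Of 23 listed genes, 10 were higher in 6E13 RV and 2 were lower, against 11.2% higher and 10.9% lower among all genes, and their median log2 fold change was 0.41. Under limma on log2(TPM + 1) the balance of calls turned to 1 higher and 8 lower, and under centred limma it was 9 higher and 2 lower. Without 6E13 631 or 6E13 645, 6 were higher and 1 lower. The study describes Dsp, Jup and Gja1 in these same samples, so their direction here is not independent evidence. Gja1 (connexin 43, the main ventricular gap junction protein, chr10:56253241-56278609) had 679, 659 and 737 CPM in 6E13 RV, against 366, 227, 379 and 250 CPM in cKO RV. Gja1 rose by 1.18 ± 0.21 on the log2 scale (SE, adjusted p = 0.00259), with treated libraries close to WT (765 ± 184 CPM in WT RV, SD, n = 3). Dsp (desmoplakin, the link from the desmosome to desmin) had 1625, 1916 and 1739 CPM in 6E13 RV, against 856, 1412, 1219 and 1156 CPM in cKO RV. Dsp rose by 0.60 ± 0.17 on the log2 scale (SE, adjusted p = 0.0292), with no overlap, as did Jup (plakoglobin), by 0.41 ± 0.12 on the log2 scale (SE, adjusted p = 0.0313), although Jup was at -0.17 on log2(TPM + 1). Dsp lost its call without cKO 264, 6E13 631 or 6E13 645 (adjusted p = 0.0637 to 0.108), and Jup without 3E13 181 or without any of the 7 libraries but cKO 180 (adjusted p = 0.0509 to 0.0913). The cadherins of the desmosome moved likewise. Dsc2 (desmocollin 2) had 47.4, 61.7 and 52.8 CPM in 6E13 RV, against 19.2, 37.0, 27.2 and 27.6 CPM in cKO RV, and rose by 0.96 ± 0.20 on the log2 scale (SE, adjusted p = 0.0057).

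Dsg2 (desmoglein 2) had 92.8, 123 and 118 CPM in 6E13 RV, against 42.7, 99.0, 54.2 and 58.7 CPM in cKO RV. One cKO library, 180, lay above the lowest treated library, and Dsg2 rose by 0.81 ± 0.25 on the log2 scale (SE, adjusted p = 0.0372). Cdh2 (N-cadherin of the adherens junction) had 549, 485 and 547 CPM in 6E13 RV, against 294, 391, 346 and 318 CPM in cKO RV. Cdh2 rose by 0.65 ± 0.14 on the log2 scale (SE, adjusted p = 0.00732). Cxadr, a cell adhesion molecule of the disc that also serves as the coxsackievirus and adenovirus receptor, had 46.3, 38.5 and 44.7 CPM in 6E13 RV, against 25.4, 27.3, 27.3 and 24.4 CPM in cKO RV. Cxadr rose by 0.73 ± 0.10 on the log2 scale (SE, adjusted p = 0.000785), the smallest adjusted p of the list. The genes that fell were Tmem43, a nuclear envelope protein gene itself linked to the same cardiomyopathy (log2 -0.65 ± 0.13, adjusted p = 0.00465), and Ctnnd1, p120-catenin (log2 -0.32 ± 0.10, adjusted p = 0.0344). No member of the list was called between 6E13 and WT, where 0.872% of all genes were called. With so few calls, this does not show a return to the WT level.

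**Figure D2:**
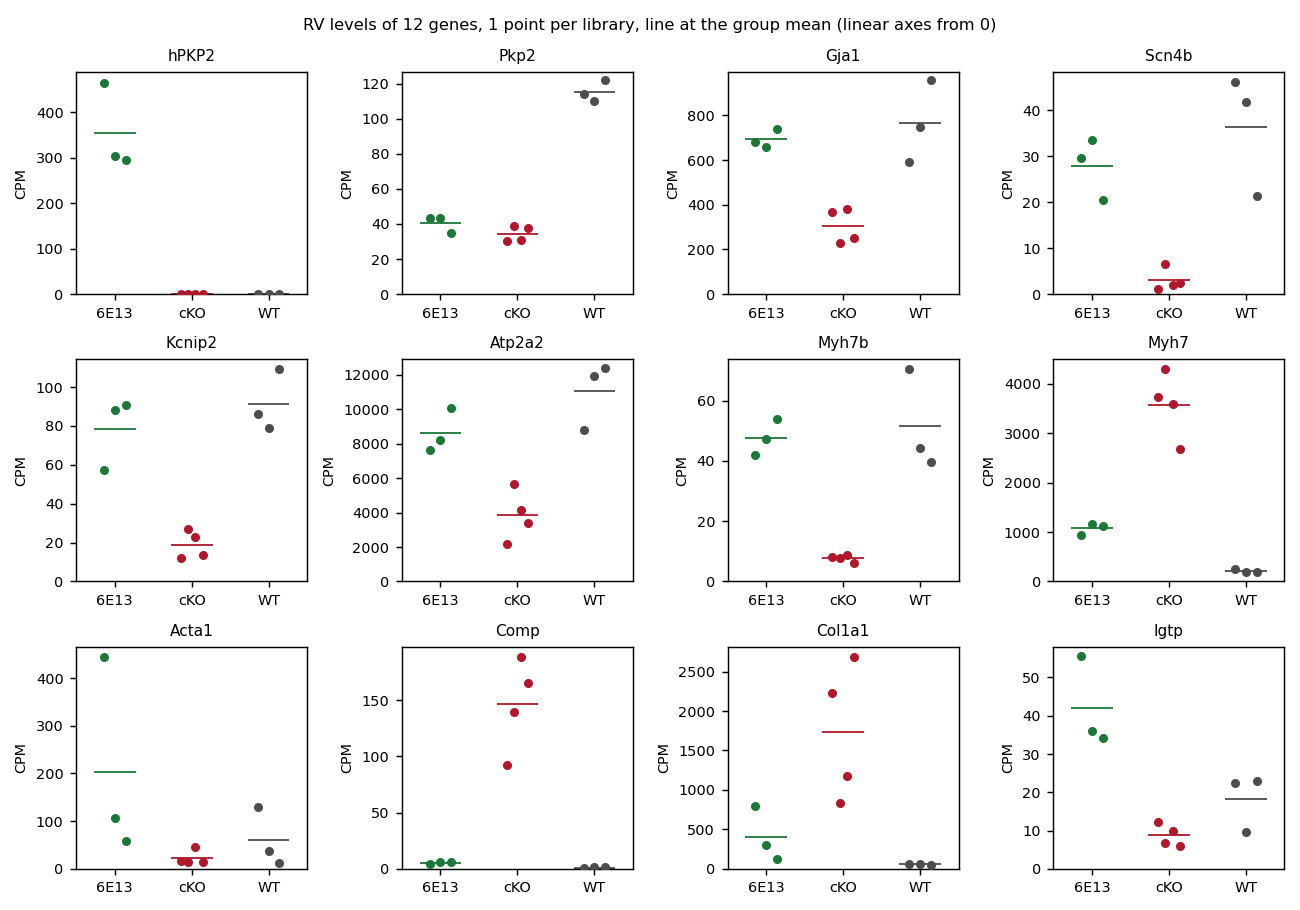
CPM in the RV of 12 genes (y axis, linear from 0) for 6E13, cKO and WT (x axis), with 1 point per library and a line at each group mean. hPKP2 is at 0 in every cKO and WT library, Gja1, Scn4b, Kcnip2, Atp2a2, Myh7b and Igtp are higher in all 3 6E13 libraries than in all 4 cKO libraries, and Myh7, Comp and Col1a1 are lower.

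Of 25 sarcomere genes, 14 were higher in 6E13 RV (all genes: 11.2%) and none was lower (10.9%), with a median of 0.75. The 10 cardiomyocyte markers, some of them on this list, summed to 93873 to 109868 CPM in 6E13 RV and 35311 to 70539 CPM in cKO RV, and the part of cell numbers in the sarcomere, calcium, channel and energy results was not tested. The count of sarcomere genes was 22 without cKO 180, 9 without 6E13 250, 7 without cKO 264, 6E13 631 or 6E13 645, and 7 with only the 6E13 and cKO libraries in the fit, and limma on log2(TPM + 1) gave 7 higher and 1 lower. It was also 9 without 3E13 181, 3E13 253 or WT 637, which do not enter the contrast. Mylk4, a myosin light chain kinase of the heart, had 80.4, 136 and 177 CPM in 6E13 RV, against 17.3, 38.9, 9.65 and 16.9 CPM in cKO RV. Mylk4 rose by 2.67 ± 0.39 on the log2 scale (SE, adjusted p = 0.000985). Myl2, the ventricular regulatory light chain, had 2581, 3143 and 4128 CPM in 6E13 RV, against 986, 1964, 1338 and 1385 CPM in cKO RV. It rose by 1.21 ± 0.25 on the log2 scale (SE, adjusted p = 0.00602). Myh6, the fast alpha myosin of the adult mouse heart, had 13443, 13128 and 17691 CPM in 6E13 RV, against 3250, 10487, 6601 and 6099 CPM in cKO RV. Library cKO 177 was the lowest of all and cKO 180 the nearest to the treated range, and Myh6 rose by 1.16 ± 0.32 on the log2 scale (SE, adjusted p = 0.0246). Tnni3 (cardiac troponin I) rose by 1.29 ± 0.28 on the log2 scale (SE, adjusted p = 0.00741), and Tnnc1 (troponin C) by 0.86 ± 0.26 on the log2 scale (SE, adjusted p = 0.0377). Tnnt2 (troponin T) did not pass the test, at 2384, 2371 and 2586 CPM in 6E13 RV, against 1196, 2869, 1362 and 1872 CPM in cKO RV, where cKO 180 was above all treated libraries (log2 0.42 ± 0.25, adjusted p = 0.268). Without cKO 180 it did pass (log2 0.73, adjusted p = 0.0133). Myh6 lost its call without cKO 264, 6E13 631 or 6E13 645 (adjusted p = 0.0512 to 0.103). Tnnc1 lost it without cKO 257, cKO 264, any treated library, either 3E13 library or WT 637 (adjusted p = 0.0506 to 0.105).

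Calcium-handling genes gave 10 of 17 higher (all genes: 11.2%) and none lower (10.9%), with a median of 0.55, and 5 higher without 6E13 645. Atp2a2, the pump SERCA2 that returns calcium to the sarcoplasmic reticulum, had 7620, 8218 and 10053 CPM in 6E13 RV, against 2181, 5660, 4126 and 3403 CPM in cKO RV. Atp2a2 rose by 1.17 ± 0.28 on the log2 scale (SE, adjusted p = 0.0129). Its inhibitor Pln (phospholamban) had 1962, 2370 and 2589 CPM in 6E13 RV, against 622, 1221, 985 and 974 CPM in cKO RV. Pln rose by 1.28 ± 0.22 on the log2 scale (SE, adjusted p = 0.00208), so pump and inhibitor were both higher. Hrc, a calcium-binding protein of the sarcoplasmic reticulum lumen, had 282, 338 and 409.9 CPM in 6E13 RV, against 62.1, 176, 107 and 114 CPM in cKO RV. Hrc rose by 1.58 ± 0.28 on the log2 scale (SE, adjusted p = 0.00251). Subunits of the L-type calcium channel rose too, with Cacnb2 at log2 1.07 ± 0.14, adjusted p = 0.000639, Cacna2d1 at log2 0.81 ± 0.14, adjusted p = 0.00251 and the pore gene Cacna1c at log2 0.52 ± 0.15, adjusted p = 0.0274, the last at -0.03 on log2(TPM + 1). Leaving out 6E13 645 ended the calls of Atp2a2 (log2 1.04, adjusted p = 0.0616) and Cacna1c (adjusted p = 0.0999), and leaving out 6E13 631 that of Cacna1c (adjusted p = 0.0924). The release channel Ryr2 (log2 0.58 ± 0.24, adjusted p = 0.117) and the luminal buffer Casq2 (log2 0.23 ± 0.24, adjusted p = 0.548) did not pass the test, although Ryr2 did with DESeq2 (adjusted p = 0.0416) and without the 2 Myl7-rich libraries (log2 0.95, adjusted p = 0.0212).

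Sodium and potassium channel genes showed 13 of 24 higher (all genes: 11.2%) and 2 lower (10.9%), with a median of 0.76. Under limma on log2(TPM + 1), 6 were higher and 2 lower, with a median of 0.23. Scn4b, a beta subunit of the cardiac sodium channel (chr9:45049595-45065452, GRCm39), had 29.6, 33.5 and 20.4 CPM in 6E13 RV, against 1.06, 6.50, 2.07 and 2.36 CPM in cKO RV. Scn4b rose by 3.23 ± 0.48 on the log2 scale (SE, adjusted p = 0.00111), to near the WT level (36.4 ± 13.2 CPM in WT RV, SD, n = 3). Kcnd2, a pore subunit of the fast transient outward current, had 38.2, 47.8 and 47.0 CPM in 6E13 RV, against 12.5, 14.04, 14.4 and 13.4 CPM in cKO RV. Kcnd2 rose by 1.70 ± 0.15 on the log2 scale (SE, adjusted p = 0.000114), with cKO libraries within a narrow range. Its partner Kcnip2, the KChIP2 subunit, had 57.1, 88.0 and 90.8 CPM in 6E13 RV, against 11.9, 26.8, 22.8 and 13.9 CPM in cKO RV. Kcnip2 rose by 2.06 ± 0.27 on the log2 scale (SE, adjusted p = 0.000534). Kcnj2, the main pore of the inward rectifier current that sets resting potential, had 79.0, 98.8 and 92.5 CPM in 6E13 RV, against 34.2, 48.8, 60.2 and 32.8 CPM in cKO RV. Kcnj2 rose by 1.03 ± 0.20 on the log2 scale (SE, adjusted p = 0.00442). Kcne1, a beta subunit of the slow delayed rectifier, was among the falls (log2 -2.21 ± 0.63, adjusted p = 0.0272).

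Heart failure and fetal programme genes fell in part and remained above WT in part. Of 10 genes, 4 were lower in 6E13 RV (all genes: 10.9%) and 1 was higher (11.2%), with a median of -0.97. Myh7, the slow beta myosin that rodent ventricles re-express under load (chr14:55208141-55232084, GRCm39), had 931, 1168 and 1120 CPM in 6E13 RV, against 3726, 4294, 3593 and 2682 CPM in cKO RV. Myh7 fell by 1.74 ± 0.20 on the log2 scale (SE, adjusted p = 0.000271), yet all treated libraries were above WT (216 ± 37.9 CPM in WT RV, SD, n = 3; log2 2.32 ± 0.21, adjusted p = 0.000654). Ctgf, a matricellular protein induced by TGF-beta and by YAP, had 142, 96.1 and 86.6 CPM in 6E13 RV, against 441, 712, 424 and 689.9 CPM in cKO RV. Ctgf fell by 2.39 ± 0.24 on the log2 scale (SE, adjusted p = 0.000175). Nppa, the atrial natriuretic peptide gene, had 190.5, 77.8 and 26.7 CPM in 6E13 RV, against 304, 928, 1069 and 185 CPM in cKO RV. Its highest treated library, 250, lay just above cKO 264, and Nppa fell by 2.66 ± 0.73 on the log2 scale (SE, adjusted p = 0.0221). Nppa is also an atrial gene, and the highest cKO values were those of the 2 Myl7-rich libraries, without which it did not pass (log2 -1.31, adjusted p = 0.166). Nor did it without 6E13 631 or 6E13 645 (adjusted p = 0.0849 and 0.0728). Nppb, the B-type peptide gene, had 136, 81.2 and 72.2 CPM in 6E13 RV, against 106, 140.3, 200 and 103 CPM in cKO RV, and did not pass the test (log2 -0.51 ± 0.32, adjusted p = 0.293), whereas on log2(TPM + 1) it did (log2 -1.12, adjusted p = 0.0252).

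Acta1, the skeletal alpha actin of the fetal heart, went the other way. It had 445, 106 and 57.4 CPM in 6E13 RV, against 17.2, 13.7, 45.0 and 14.7 CPM in cKO RV. Acta1 rose by 3.16 ± 0.81 on the log2 scale (SE, adjusted p = 0.0165), with 6E13 250 far above the other treated libraries, while the WT libraries themselves ran from 12.8 to 129 CPM. Without 6E13 250 it did not pass the test (log2 1.84, adjusted p = 0.101).

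Fibrous matrix genes were lower as a group. Of 19 collagen genes, 18 were lower in 6E13 RV (all genes: 10.9%) and none was higher (11.2%), with a median of -1.74. The number lower was 10 without 6E13 631 or 6E13 645. The 12 resting fibroblast markers summed to 1637 to 2147 CPM in 6E13 RV and 2990 to 4510 CPM in cKO RV, none of them was at 0 in these 7 libraries, and the part of fibroblast number in the matrix results was not tested. Col1a1 had 792, 296 and 127 CPM in 6E13 RV, against 2225, 836, 1171 and 2685 CPM in cKO RV. Col1a1, the chain of the main fibrillar collagen, fell by 2.09 ± 0.56 on the log2 scale (SE, adjusted p = 0.0204). Col3a1, its partner in fibrils, had 1332, 684 and 306 CPM in 6E13 RV, against 3881, 1532, 1838 and 5668 CPM in cKO RV. Col3a1 fell by 2.06 ± 0.52 on the log2 scale (SE, adjusted p = 0.0161), and 6E13 250 was the treated library nearest to the cKO range in both. Without 6E13 631 or 6E13 645 neither passed (adjusted p = 0.0837 and 0.0585 for Col1a1, 0.0652 and 0.0587 for Col3a1), and without 6E13 250 the falls were 3.03 and 2.71 on the log2 scale (adjusted p = 0.00416 and 0.00898). Library 6E13 250 was in fact the highest of the 3 treated libraries for all 19 collagen genes, against 35.1% of all genes. Col6a1, a chain of the collagen VI microfibrils around cells, had 169, 123 and 84.9 CPM in 6E13 RV, against 353, 295, 313 and 418 CPM in cKO RV. Col6a1 fell by 1.46 ± 0.20 on the log2 scale (SE, adjusted p = 0.000785). Among the collagen genes, 7 were called above WT in 6E13 RV, including Col8a2 (log2 4.51 ± 0.66, adjusted p = 0.0134) and Col12a1 (log2 3.49 ± 0.65, adjusted p = 0.0376). Among all genes 0.849% were called above WT. That contrast was fragile, with 151 genes called in the main test, 20 without 6E13 250 and 15 without WT 637. Which collagen genes kept the call in those fits was not examined. These limits hold for every call against WT below.

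Of 30 other matrix and cross-linking genes, 25 were lower (all genes: 10.9%) and none was higher (11.2%), with a median of -1.98. Comp, a pentameric matrix protein that binds collagen (chr8:70826192-70834716, GRCm39), had 4.002, 6.26 and 6.27 CPM in 6E13 RV, against 92.8, 139.8, 188 and 165 CPM in cKO RV. Comp fell by 4.74 ± 0.32 on the log2 scale (SE, adjusted p = 3.52e-05). Fmod (fibromodulin, a small proteoglycan that binds collagen) had 6.51, 9.29 and 4.90 CPM in 6E13 RV, against 94.4, 80.0, 70.0 and 91.2 CPM in cKO RV. Fmod fell by 3.60 ± 0.27 on the log2 scale (SE, adjusted p = 5.8e-05), and stayed above WT (0.517 ± 0.213 CPM in WT RV, SD, n = 3). Eln (elastin) had 29.9, 25.3 and 15.1 CPM in 6E13 RV, against 339.6, 221, 99.8 and 131 CPM in cKO RV. Eln fell by 3.08 ± 0.49 on the log2 scale (SE, adjusted p = 0.00152). Lox, an enzyme that cross-links the fibres of both, had 62.5, 21.0 and 8.17 CPM in 6E13 RV, against 231, 176.6, 185 and 379.7 CPM in cKO RV. Lox fell by 2.99 ± 0.60 on the log2 scale (SE, adjusted p = 0.00527). Of these matrix genes, 11 were called higher in 6E13 RV than in WT, against 0.849% of all genes. They included Cilp (log2 4.10 ± 0.45, adjusted p = 0.00269) and Ltbp2 (log2 4.47 ± 0.58, adjusted p = 0.00916).

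Tnc (tenascin C) and Postn (periostin), both markers of activated matrix-producing fibroblasts, did not pass the test against cKO. Tnc had 216, 21.6 and 9.94 CPM in 6E13 RV, against 106, 27.4, 46.1 and 54.9 CPM in cKO RV. Library 6E13 250 was above all cKO libraries and the other two treated libraries were below them all (log2 0.50 ± 0.79, adjusted p = 0.706). Postn had 672, 191 and 82.0 CPM in 6E13 RV, against 1017, 494, 540.3 and 963 CPM in cKO RV, again with 250 inside the cKO range (log2 -1.26 ± 0.57, adjusted p = 0.138). Both were called above WT in 6E13 RV, Tnc at log2 6.15 ± 1.13, adjusted p = 0.0367 and Postn at log2 3.29 ± 0.64, adjusted p = 0.0423. Library 6E13 250 was the highest treated library in both, and whether these calls hold without it was not examined.

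Of 16 matrix proteases and inhibitors, 12 were lower and none was higher, with a median of -1.40. Mmp2 (gelatinase A) had 75.3, 92.7 and 49.5 CPM in 6E13 RV, against 270.3, 287, 239.9 and 342 CPM in cKO RV. Mmp2 fell by 1.97 ± 0.20 on the log2 scale (SE, adjusted p = 0.00018). Mmp3 (stromelysin) fell by 3.81 ± 0.59 on the log2 scale (SE, adjusted p = 0.00128), and cKO 264 held its highest level, 63.2 CPM. Without cKO 264 it fell by 3.01 on the log2 scale (adjusted p = 0.000524). Timp1, an inhibitor of these proteases, had 15.6, 5.46 and 3.05 CPM in 6E13 RV, against 39.2, 12.4, 24.8 and 38.9 CPM in cKO RV, with 6E13 250 above cKO 180. Timp1 fell by 1.83 ± 0.51 on the log2 scale (SE, adjusted p = 0.024), and lost its call without cKO 177, cKO 264, 6E13 631 or 6E13 645 (adjusted p = 0.0530 to 0.0961), whereas without 6E13 250 it fell by 2.75 on the log2 scale (adjusted p = 0.00349). Of 23 tested genes of TGF-beta and Wnt signalling, 14 were lower and 2 were higher, with a median of -1.23. Sfrp2, a secreted Wnt modulator of fibroblasts, had 27.1, 34.1 and 26.2 CPM in 6E13 RV, against 214, 137, 191 and 192 CPM in cKO RV. Sfrp2 fell by 2.66 ± 0.16 on the log2 scale (SE, adjusted p = 3.52e-05), and was still above WT (2.44 ± 0.274 CPM in WT RV, SD, n = 3; log2 3.57 ± 0.19, adjusted p = 7.39e-06). Frzb, another secreted frizzled-related protein, fell by 2.54 ± 0.22 on the log2 scale (SE, adjusted p = 0.000114), and the receptors Tgfbr1 and Tgfbr2 fell by 1.00 ± 0.15 on the log2 scale (SE, adjusted p = 0.00105) and 0.99 ± 0.10 on the log2 scale (SE, adjusted p = 0.000178). The 2 that rose were Wnt5a (log2 0.60 ± 0.12, adjusted p = 0.0056) and the Wnt inhibitor Wif1 (log2 1.35 ± 0.40, adjusted p = 0.0309).

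**Figure D3:**
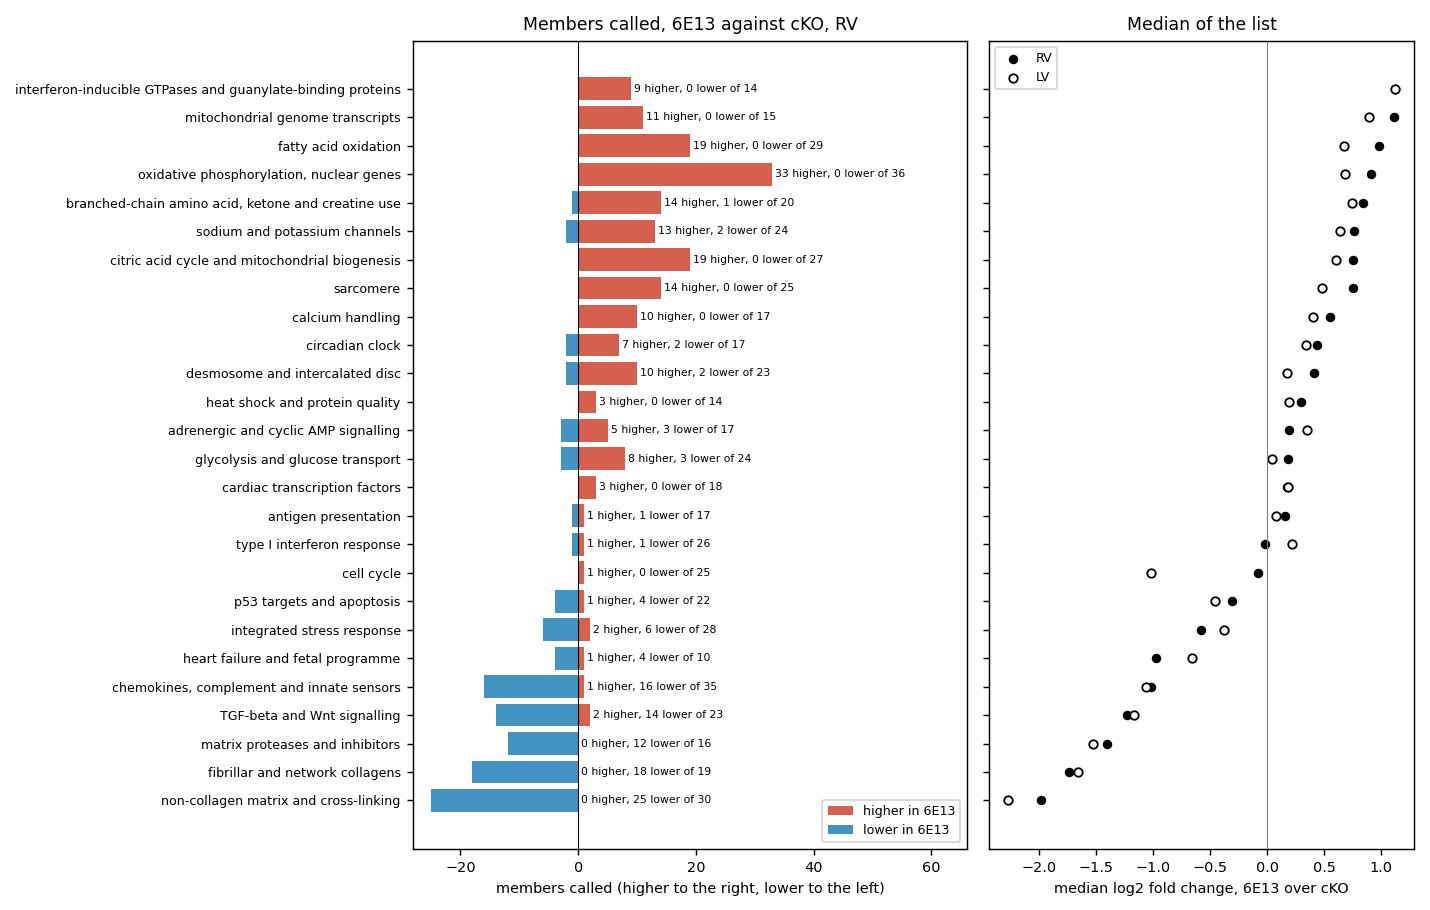
Left, the number of members of each of 26 gene lists that were called higher (right of 0) or lower (left of 0) in 6E13 RV than in cKO RV; right, the median log2 fold change of each list in the RV (filled) and in the left ventricle, LV (open). The matrix lists lie lowest, at -1.98 and -1.74 in the RV, and the mitochondrial genome and interferon-inducible GTPase lists highest, at 1.11 and 1.12.

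Genes of energy metabolism were higher as a group. Of 36 tested nuclear genes of oxidative phosphorylation, 33 were higher (all genes: 11.2%) and none was lower (10.9%), with a median of 0.91. This fell to 19 without 6E13 631, 11 without 6E13 645 and 10 under limma on log2(TPM + 1), with none lower in any of these. Cox7a1, a muscle subunit of cytochrome c oxidase, had 91.9, 146 and 148 CPM in 6E13 RV, against 30.8, 74.9, 44.7 and 49.5 CPM in cKO RV. Cox7a1 rose by 1.36 ± 0.30 on the log2 scale (SE, adjusted p = 0.00763). Ndufs1, a core subunit of complex I, had 305, 383 and 388 CPM in 6E13 RV, against 133, 247, 189.8 and 185 CPM in cKO RV. Ndufs1 rose by 0.92 ± 0.18 on the log2 scale (SE, adjusted p = 0.00468). Of 29 genes of fatty acid oxidation, the main fuel pathway of the adult heart, 19 were higher and none lower, with a median of 0.98, and 12 and 11 were higher without 6E13 631 and without 6E13 645. Cpt2, which completes the import of long-chain fatty acids into mitochondria, had 91.7, 109 and 110.2 CPM in 6E13 RV, against 29.4, 57.9, 42.7 and 41.8 CPM in cKO RV. Cpt2 rose by 1.27 ± 0.18 on the log2 scale (SE, adjusted p = 0.000985). Hadhb, a subunit of the trifunctional protein, had 501, 726 and 659.9 CPM in 6E13 RV, against 182, 366, 244 and 268 CPM in cKO RV. Hadhb rose by 1.25 ± 0.21 on the log2 scale (SE, adjusted p = 0.00224). In none of these 4 genes, named for a small adjusted p, did the groups overlap, and 32.1% of all genes tested had no overlap. In each of the 4, cKO 177 was the lowest and cKO 180 the highest of the cKO libraries.

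Of 27 genes of the citric acid cycle and mitochondrial biogenesis, 19 were higher and none lower, with a median of 0.75, and 10 were higher without 6E13 631 or 6E13 645. Under limma on log2(TPM + 1), 6 were higher and 2 lower. Ppargc1b, a coactivator of mitochondrial genes, had 67.4, 53.9 and 69.8 CPM in 6E13 RV, against 26.6, 32.0, 33.5 and 20.9 CPM in cKO RV. Ppargc1b rose by 1.17 ± 0.18 on the log2 scale (SE, adjusted p = 0.00125). Its relative Ppargc1a rose by 0.71 ± 0.21 on the log2 scale (SE, adjusted p = 0.0301), and the nuclear receptor Esrrg by 0.73 ± 0.12 on the log2 scale (SE, adjusted p = 0.0022). Of 20 genes of branched-chain amino acid, ketone and creatine use, 14 were higher and 1 lower, with a median of 0.84. Dbt, a subunit of the branched-chain ketoacid dehydrogenase, had 33.7, 46.2 and 48.9 CPM in 6E13 RV, against 13.8, 22.2, 18.6 and 17.0 CPM in cKO RV. Dbt rose by 1.26 ± 0.16 on the log2 scale (SE, adjusted p = 0.000584). Ckm, the muscle creatine kinase, rose by 1.29 ± 0.29 on the log2 scale (SE, adjusted p = 0.00813).

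Glycolysis and glucose transport gave 8 of 24 tested genes higher, against 11.2% of all genes, with a median of 0.18. The 3 that were lower are about the share lower among all genes (10.9%). The count turned round on log2(TPM + 1), with 5 higher and 10 lower, and under centred limma was 8 higher and 2 lower. It was 6 higher and 1 lower without cKO 264 or with only the 6E13 and cKO libraries, and 6 higher and none lower without 6E13 631 or 6E13 645. The insulin-responsive transporter Slc2a4 had 176, 201 and 232 CPM in 6E13 RV, against 52.7, 114, 83.9 and 79.8 CPM in cKO RV. Slc2a4 rose by 1.29 ± 0.21 on the log2 scale (SE, adjusted p = 0.00158). Hk2 (hexokinase 2) had 309.9, 292 and 364 CPM in 6E13 RV, against 135, 125, 176 and 109 CPM in cKO RV. Hk2 rose by 1.24 ± 0.15 on the log2 scale (SE, adjusted p = 0.000447), while the inducible regulator Pfkfb3 fell by 0.99 ± 0.29 on the log2 scale (SE, adjusted p = 0.0301) and the lactate exporter Slc16a3 by 1.03 ± 0.27 on the log2 scale (SE, adjusted p = 0.0199).

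Transcripts of the mitochondrial genome took 28.4%, 34.0% and 33.1% of counts in 6E13 RV, against 15%, 23.2%, 18.9% and 20.4% in cKO RV. The shares did not overlap, and the means were 31.9% ± 3.00 in 6E13 RV (SD, n = 3) and 19.4% ± 3.42 in cKO RV (SD, n = 4). The difference of 12.5 percentage points had a two-sided exact permutation p of 0.0286, the smallest that the 35 arrangements of 3 against 4 libraries allow. On shares of TPM the difference was 12.4 points and the exact permutation p was 0.0571. In WT RV the share was 38.2% ± 2.14 (SD, n = 3). Of 15 mitochondrial genes, 11 were called higher and none lower, with a median of 1.11. That count was 6 without cKO 257, 7 without cKO 264, 5 without 6E13 631, 3 without 6E13 645, 7 with only the 6E13 and cKO libraries, 2 under centred limma and 0 under limma on log2(TPM + 1). mt-Nd6, a complex I subunit and the protein gene on the light strand, had 2513, 3386 and 3225 CPM in 6E13 RV, against 913, 1629, 990 and 1278 CPM in cKO RV. It rose by 1.34 ± 0.22 on the log2 scale (SE, adjusted p = 0.00166).

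**Figure D4:**
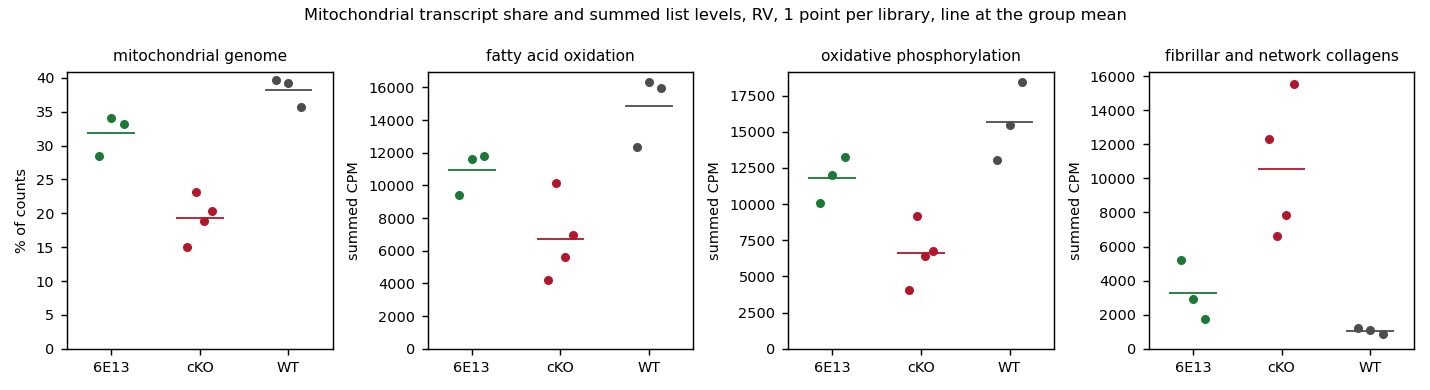
Mitochondrial genome transcripts as a percentage of counts, and summed CPM of the fatty acid oxidation, oxidative phosphorylation and collagen lists, for 6E13, cKO and WT RV (x axis); points are libraries and lines are group means, on linear axes from 0. Oxidative phosphorylation genes sum to 10067 to 13262 CPM in 6E13, 4081 to 9195 CPM in cKO and 13054 to 18425 CPM in WT, whereas collagens sum to 1743 to 5183, 6644 to 15515 and 859 to 1199 CPM.

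A group of interferon-inducible GTPases rose. The immunity-related GTPases and the guanylate-binding proteins are induced mainly by interferon-gamma and act against intracellular pathogens. Of 14 genes, 9 were higher in 6E13 RV (all genes: 11.2%) and none was lower (10.9%), with a median of 1.12. For cKO over WT the median of the list was -0.49, and that of all genes was 0.057. The count was 4 under limma on log2(TPM + 1) and 6 without the 2 Myl7-rich libraries. Igtp (Irgm3, chr11:58089840-58098417, GRCm39) had 55.6, 36.0 and 34.1 CPM in 6E13 RV, against 12.1, 6.85, 9.81 and 6.06 CPM in cKO RV. Igtp rose by 2.26 ± 0.33 on the log2 scale (SE, adjusted p = 0.00101), and no treated library was below the WT mean (18.3 ± 7.59 CPM in WT RV, SD, n = 3). Irgm2 had 80.5, 58.9 and 53.9 CPM in 6E13 RV, against 31.2, 16.9, 32.3 and 17.1 CPM in cKO RV. Irgm2 rose by 1.40 ± 0.30 on the log2 scale (SE, adjusted p = 0.00716). Gbp6 had 26.97, 24.2 and 17.7 CPM in 6E13 RV, against 5.12, 6.76, 5.28 and 1.31 CPM in cKO RV. Gbp6 rose by 2.31 ± 0.63 on the log2 scale (SE, adjusted p = 0.0217), and it was the member also called above WT (1.72 ± 1.57 CPM in WT RV, SD, n = 3; log2 3.72 ± 0.76, adjusted p = 0.0489). Tgtp1 and Tgtp2 are near-identical copies that share reads, so their values of log2 1.92 ± 0.46, adjusted p = 0.0115 and log2 1.29 ± 0.31, adjusted p = 0.0123 are uncertain one by one. Tgtp1 did not pass without the 2 Myl7-rich libraries (adjusted p = 0.0640). Outside the list, Gm4841 and F830016B08Rik, which code for GTPases of the same family, were among the largest rises. F830016B08Rik had 245, 158 and 116 CPM in 6E13 RV, against 14.8, 15.98, 18.03 and 18.8 CPM in cKO RV. F830016B08Rik rose by 3.36 ± 0.29 on the log2 scale (SE, adjusted p = 0.000114), and was above WT as well (log2 1.83 ± 0.31, adjusted p = 0.0301). Gm4841 had 32.9, 17.1 and 14.8 CPM in 6E13 RV, against 2.39, 0.603, 1.04 and 0.541 CPM in cKO RV (log2 4.22 ± 0.67, adjusted p = 0.00152). The 11 tested markers of T, NK and B cells, the cells that release interferon-gamma being among them, summed to 10.4 to 11.4 CPM in 6E13 RV, 6.25 to 14.1 CPM in cKO RV and 2.02 to 3.53 CPM in WT RV, and their part in this rise was not tested.

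Promoter windows of members that rose are printed because the list is defined by induction through interferon, whose factors bind 2 short motifs. The sequences are RefSeq promoters on GRCm38.p6, 250 bases before to 50 after the gene start, and 9 of the 14 members matched the table. The windows of 60 bases shown are 5′ to 3′ on the gene's strand. Capitals mark matches to the core of the interferon-stimulated response element (ISRE: GAAA, any 2 bases, then GAAA) or to the gamma-activated site (GAS, TTCNNNGAA), each searched on both strands, where the motifs may overlap.
Igtp: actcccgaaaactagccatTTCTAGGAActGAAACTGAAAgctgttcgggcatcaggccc
Irgm2: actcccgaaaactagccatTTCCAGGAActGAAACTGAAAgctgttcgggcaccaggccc
Tgtp2: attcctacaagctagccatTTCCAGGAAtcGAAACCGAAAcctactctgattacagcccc
Irgm1: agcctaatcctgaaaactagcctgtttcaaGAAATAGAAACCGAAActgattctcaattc
Gbp2: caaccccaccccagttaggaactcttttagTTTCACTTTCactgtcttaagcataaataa
The windows lie at chr11:58199492-58199551, plus strand for Igtp, chr11:58214883-58214942, plus strand for Irgm2, chr11:49064253-49064312, minus strand for Tgtp2, chr11:48871421-48871480, minus strand for Irgm1 and chr3:142620574-142620633, plus strand for Gbp2. The ISRE core was in the promoters of 9 of the 9 matched members, against 3.99% of all 27025 genes with a promoter entry. The GAS was in 6 of 9 (66.7%), against 9.55%. The list was chosen for induction by interferon, so these shares describe the list and are no result of these data. In Igtp, Irgm2 and Tgtp2, and in Tgtp1, which is not printed, the GAS stands 2 bases before the ISRE core. The surroundings in Igtp and Irgm2 are nearly the same. These are matches of letters in a window and not measured binding. In the list of the type I interferon response, 10 of 16 matched promoters (62.5%) held the ISRE core and 3 (18.8%) the GAS.

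Few genes of the other interferon and antigen presentation lists were called, against 22.1% of all genes, 11.2% higher and 10.9% lower. Of 26 genes of the type I interferon response, 1 was higher and 1 lower, with a median of -0.02, and limma on log2(TPM + 1) gave none higher and 4 lower. The member that fell was Ifi27l2a, at 8.77, 7.55 and 7.16 CPM in 6E13 RV, against 11.7, 11.5, 18.5 and 21.1 CPM in cKO RV (adjusted p = 0.0101, and 0.0505 without 6E13 645). Of 17 antigen presentation genes, 1 was higher, the immunoproteasome subunit Psmb10 (log2 0.76 ± 0.19, adjusted p = 0.0142), and 1 lower, Tapbp (log2 -1.42 ± 0.41, adjusted p = 0.0275), with a median of 0.16 that turned to -0.39 on log2(TPM + 1). Psmb10 lost its call without 6E13 250 or 6E13 631 (adjusted p = 0.0552 and 0.0592), and Tapbp without cKO 180, cKO 264, 6E13 250 or 6E13 645 (adjusted p = 0.0511 to 0.0955). The class II genes H2-Ab1 (log2 1.75 ± 0.35, adjusted p = 0.0438), Cd74 (log2 1.64 ± 0.32, adjusted p = 0.0423) and H2-DMb1 (log2 2.04 ± 0.26, adjusted p = 0.00909) were above WT in 6E13 RV.

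Of 35 tested chemokines, complement genes and innate sensors, 16 were lower (all genes: 10.9%) and 1 was higher (11.2%), with a median of -1.02. Cxcl9, a chemokine induced by interferon-gamma that draws T cells, had 13.2, 13.2 and 8.61 CPM in 6E13 RV, against 3.48, 0.646, 3.01 and 1.47 CPM in cKO RV. Cxcl9 rose by 2.42 ± 0.41 on the log2 scale (SE, adjusted p = 0.00203), the only member to rise. C3, the central complement protein, had 234, 396 and 357 CPM in 6E13 RV, against 468, 681, 701 and 1328 CPM in cKO RV. C3 fell by 1.27 ± 0.31 on the log2 scale (SE, adjusted p = 0.0125), and C4b by 2.18 ± 0.40 on the log2 scale (SE, adjusted p = 0.00335). Il1r1, the interleukin 1 receptor, had 28.8, 26.5 and 25.1 CPM in 6E13 RV, against 88.3, 63.4, 52.0 and 132 CPM in cKO RV. Il1r1 fell by 1.65 ± 0.27 on the log2 scale (SE, adjusted p = 0.00183). C1qa (log2 1.26 ± 0.22, adjusted p = 0.0306), C1qb (log2 1.23 ± 0.24, adjusted p = 0.041), Tlr8 (log2 1.77 ± 0.34, adjusted p = 0.0407) and Ccl5 (log2 3.06 ± 0.34, adjusted p = 0.00269) remained above WT. The acute-phase genes among the largest falls had a common high library. Serpina3n had 31.4, 25.2 and 11.2 CPM in 6E13 RV, against 191, 195, 196 and 1413 CPM in cKO RV. Library cKO 264 was far above the rest, and Serpina3n fell by 4.46 ± 0.83 on the log2 scale (SE, adjusted p = 0.00343). Ptx3 (pentraxin 3) had 0.572, 0.995 and 0.663 CPM in 6E13 RV, against 9.46, 4.52, 2.56 and 37.3 CPM in cKO RV, with the same library highest, and fell by 4.17 ± 0.88 on the log2 scale (SE, adjusted p = 0.00661). Without cKO 264 the falls were 3.09 for Serpina3n and 2.88 for Ptx3 on the log2 scale, and both passed (adjusted p = 0.000812 and 0.00710). Hp (haptoglobin) had 0.286, 0.848 and 0.221 CPM in 6E13 RV, against 1.98, 9.05, 2.04 and 22.4 CPM in cKO RV, and fell by 4.27 ± 1.19 on the log2 scale (SE, adjusted p = 0.0241). Hp lost its call without cKO 264, 6E13 250 or 6E13 645 (adjusted p = 0.0626 to 0.0972).

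The calls in stress, clock and signalling lists stand against 22.1% called among all genes. Of 28 tested genes of the integrated stress response, 6 were lower and 2 higher, with a median of -0.58. Nupr1, a stress-induced chromatin protein, had 2.64, 3.46 and 3.23 CPM in 6E13 RV, against 11.6, 11.4, 12.1 and 11.4 CPM in cKO RV. Nupr1 fell by 1.90 ± 0.23 on the log2 scale (SE, adjusted p = 0.000375), and the response's master factor Atf4 by 0.57 ± 0.13 on the log2 scale (SE, adjusted p = 0.00898). With length offsets 4 were lower and 1 higher, and under limma on log2(TPM + 1) 17 were lower and none higher. Of 22 p53 targets and apoptosis genes, 4 were lower and 1 higher, with a median of -0.31, and 2 were lower and none higher without 6E13 631 or 6E13 645 or with only the 6E13 and cKO libraries. Under limma on log2(TPM + 1), 11 were lower and none higher. Cdkn1a (p21) had 21.0, 11.3 and 9.50 CPM in 6E13 RV, against 36.0, 147, 36.0 and 228 CPM in cKO RV, with cKO 180 and 264 high. Cdkn1a fell by 3.00 ± 0.65 on the log2 scale (SE, adjusted p = 0.00753), and by 2.38 on the log2 scale without cKO 264 (adjusted p = 0.0152). Of 25 cell cycle genes, 1 was higher, Cenpf (log2 1.11 ± 0.30, adjusted p = 0.0219), none was lower, and the median was -0.08. Cenpf lost its call without cKO 177, 6E13 631 or 6E13 645 (adjusted p = 0.0509 to 0.0909).

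Of 17 clock genes, 7 were higher and 2 lower, with a median of 0.44. The count turned to 2 higher and 3 lower on log2(TPM + 1), and was 3 higher and 1 lower without 6E13 645. Centred limma gave 7 higher and 1 lower. Dbp, a clock output factor, had 52.5, 50.9 and 66.7 CPM in 6E13 RV, against 24.4, 16.8, 23.3 and 5.72 CPM in cKO RV. Dbp rose by 1.69 ± 0.40 on the log2 scale (SE, adjusted p = 0.0109), while Arntl (BMAL1), which is in antiphase to it in mouse tissues, fell by 1.03 ± 0.29 on the log2 scale (SE, adjusted p = 0.0241). The hour of collection was not given in the sources used here, and its part in these values was not tested. Of 14 heat shock genes, 3 were higher and none lower, with a median of 0.30. On log2(TPM + 1) 2 were higher and 3 lower, and under centred limma 2 were higher and none lower. Hspb8, a small chaperone of the heart, had 266, 257.3 and 274 CPM in 6E13 RV, against 99.6, 137, 140.3 and 132 CPM in cKO RV. Hspb8 rose by 1.06 ± 0.13 on the log2 scale (SE, adjusted p = 0.000402). Of 17 adrenergic and cyclic AMP genes, 5 were higher and 3 lower, with a median of 0.19. On log2(TPM + 1) 1 was higher and 6 lower, and under centred limma 6 were higher and 3 lower. The count was 2 higher and 3 lower without cKO 264, 6E13 631 or 6E13 645. Adrb1, the main beta-adrenergic receptor of cardiomyocytes, had 21.1, 18.8 and 21.6 CPM in 6E13 RV, against 6.29, 9.22, 12.7 and 4.75 CPM in cKO RV. Adrb1 rose by 1.31 ± 0.26 on the log2 scale (SE, adjusted p = 0.00504). Of 18 tested cardiac transcription factors, 3 were higher and none lower, with a median of 0.17. Only 1 was higher without cKO 264, 6E13 631 or 6E13 645, and 6 were higher without the 2 Myl7-rich libraries. On log2(TPM + 1) 1 was higher and 3 lower, and under centred limma 3 were higher and none lower. Irx4, a ventricular identity factor, had 28.4, 21.8 and 29.5 CPM in 6E13 RV, against 7.72, 10.4, 10.5 and 7.96 CPM in cKO RV. Irx4 rose by 1.54 ± 0.18 on the log2 scale (SE, adjusted p = 0.000338).

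Cell type markers moved in part. Their counts stand against 22.1% called among all genes, 11.2% higher and 10.9% lower. Of the 10 cardiomyocyte markers, 7 were higher and 1 lower, with a median of 0.95. That was 4 higher without cKO 264, 6E13 631 or 6E13 645, and 4 with only 6E13 and cKO libraries in the fit. The marker that fell was Nppa. The 11 activated fibroblast markers summed to 313 to 1272 CPM in 6E13 RV, with 250 highest, against 1542 to 2508 CPM in cKO RV. Of these, 4 were lower and none higher, and 8 were lower without 6E13 250 or under limma on log2(TPM + 1). Of the 12 resting fibroblast markers, 7 were lower and none higher, with a median of -0.90. Pdgfra, the receptor that marks cardiac fibroblasts, had 63.6, 84.5 and 73.5 CPM in 6E13 RV, against 187, 196, 152 and 205 CPM in cKO RV. Pdgfra fell by 1.33 ± 0.13 on the log2 scale (SE, adjusted p = 0.000175).

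The 20 macrophage and monocyte markers summed to 404 to 506 CPM in 6E13 RV and 575 to 989 CPM in cKO RV, with 8 lower and 1 higher, and 13 lower without cKO 180. Lyve1, a marker of resident cardiac macrophages and of lymphatic vessels, had 8.86, 6.49 and 16.2 CPM in 6E13 RV, against 47.0, 66.2, 50.3 and 130.4 CPM in cKO RV. Lyve1 fell by 2.81 ± 0.41 on the log2 scale (SE, adjusted p = 0.000985), and its treated level was near WT (12.6 ± 2.81 CPM in WT RV, SD, n = 3). Other members of the list did not all follow Lyve1. Timd4 had 95 counts in the 3 6E13 libraries together and 53 in the 4 cKO libraries. For Folr2 these sums were 299.7 and 382.9, and for Mrc1 4961 and 14884, none of them scaled for library size. Of the 11 tested markers of T, NK and B cells, 1 was lower and none higher, Klrb1c, which had 2 counts in all 6E13 libraries and 51.4 in all cKO libraries together, and which lost its call without either 3E13 library or any 1 of the 7 libraries but 6E13 645 (adjusted p = 0.0524 to 0.139). Trac, the constant region of the T cell receptor alpha chain, was at 0 in 3 of 3 6E13 libraries and in 3 of 4 cKO libraries, and was not tested. Endothelial markers gave 3 lower of 12, smooth muscle and pericyte markers 3 lower and 1 higher of 10, and neutrophil markers 1 lower of 5 tested. Adipocyte markers gave none of 5 tested, and red cell markers 1 lower of 6. Under limma on log2(TPM + 1) these counts were 10 lower for endothelial, 7 lower and 1 higher for smooth muscle and pericyte, 2 lower for adipocyte and 6 lower for red cell markers, and the red cell count was 0 without cKO 180, cKO 264, 6E13 250 or 6E13 631 and 3 without 6E13 645. The neutrophil count was 0 without cKO 177, 6E13 631 or 6E13 645 and 2 without cKO 180 or cKO 264. Immediate early genes gave 1 lower of 19, Fosl2 (log2 -1.46 ± 0.39, adjusted p = 0.021), which lost its call without any 1 of the treated libraries (adjusted p = 0.0554 to 0.0819). On that list limma on log2(TPM + 1) gave 9 lower, and 4 were lower without the 2 Myl7-rich libraries.

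Atrial, epicardial and nerve-sheath markers were lower in 6E13 RV as well. Of 12 atrial markers, 6 were lower and none higher, and their sum was 587 to 707 CPM in 6E13 RV and 810 to 2195 CPM in cKO RV. Bmp10, an atrial growth factor, had 0.127, 0.0369 and 0.0442 CPM in 6E13 RV, against 29.5, 56.2, 425 and 0.232 CPM in cKO RV. Myl4, an atrial light chain, had 0.826, 0.995 and 0.707 CPM in 6E13 RV, against 7.62, 186, 165 and 1.78 CPM in cKO RV. Both were high in cKO 180 and 257 and low in cKO 264, so the sizes of their falls (log2 -10.67 and -6.73) follow those libraries. Without cKO 180 and 257 the fall of Myl4 was 2.47 on the log2 scale (adjusted p = 0.00874), Bmp10 was not tested, and 3 atrial markers were lower and 1 higher. Of 8 tested epicardial and mesothelial markers, 5 were lower and none higher, and 2 were lower without the Myl7-rich libraries and 3 without 6E13 631. Krt19 had no counts in the 3 6E13 libraries and 53 counts in the 4 cKO libraries together, none of which was at 0. Msln was at 0 in 3 of 3 6E13 libraries and in 3 of 4 cKO libraries, and was not tested. Of 7 tested Schwann cell markers, 6 were lower and none higher, 2 without 6E13 250 and 3 without 6E13 645 or without the 2 Myl7-rich libraries. Which parts of the heart wall entered each piece was not tested.

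**Figure D5:**
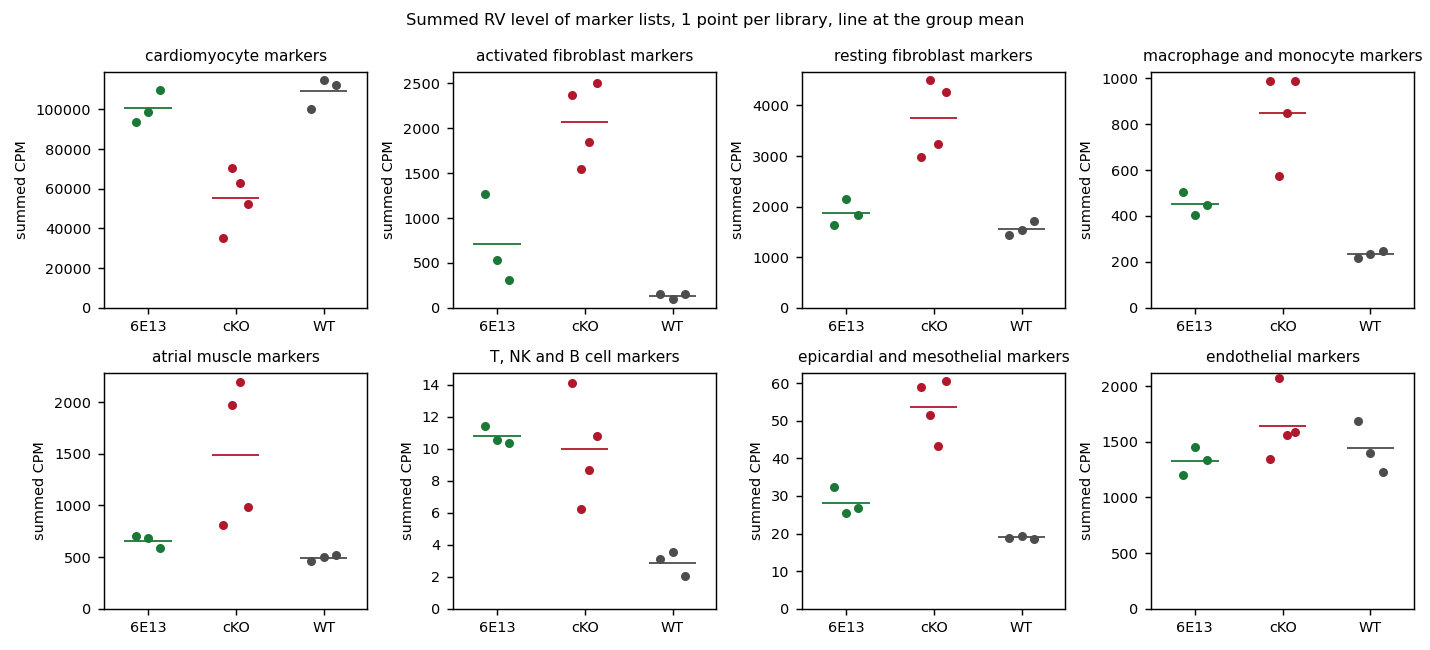
Summed CPM of 8 marker lists (y axis, linear from 0) for 6E13, cKO and WT RV (x axis), with 1 point per library and a line at the group mean. Cardiomyocyte markers are higher and both fibroblast lists and the macrophage list lower in every 6E13 library than in every cKO library, and the atrial sum is highest in cKO 257 (2195 CPM) and 180 (1967 CPM).

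Against WT, 151 of 17307 genes (0.872%) differed in 6E13 RV, 147 higher (0.849%) and 4 lower. At an unadjusted p under 0.05 there were 2098. DESeq2 called 633, and leaving out 1 library gave between 15 (without WT 637) and 279 (without cKO 180). It was 20 without 6E13 250, 22 without WT 636, 26 without WT 647, 44 without cKO 257 and 55 without 6E13 631. Sfrp2 had the smallest adjusted p, with 27.1, 34.1 and 26.2 CPM in 6E13 RV, against 2.61, 2.13 and 2.60 CPM in WT RV (log2 3.57 ± 0.19, adjusted p = 7.39e-06). It was thus higher in treated than in WT hearts although far lower than in cKO. Myh7, Fmod, Cilp, Mfap4 and Ltbp2 were also among those above WT. The 4 genes below WT are named after their values were seen. Pkp2 itself had 43.7, 43.3 and 34.7 CPM in 6E13 RV, against 114, 110.3 and 122 CPM in WT RV. Mea1 was listed at 0 in all 3 6E13 libraries, against 2.56, 2.31 and 1.11 CPM in WT RV and 1.81, 3.58, 4.24 and 3.24 CPM in cKO RV. Wdr59 (5.88, 6.97 and 5.70 CPM in 6E13 RV, against 13.1, 9.64 and 13.9 CPM in WT RV) and Amy1 (4.10, 7.22 and 5.96 CPM in 6E13 RV, against 12.2, 11.8 and 13.1 CPM in WT RV) were the other two. Of the 26 pathway lists, none had a member called below WT.

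The LV of the same animals gave the matched comparison. With the animal as a block and 24 libraries of 12 animals, 0 of 17981 genes (0%) differed between the RV effect and the LV effect of the 6E13 dose by edgeR's quasi-likelihood test, with 979 at an unadjusted p under 0.05. Without the block the count was 0 as well, and limma voom gave 0. Without 6E13 631 it was 3. With groups of this size, the lack of calls does not show that the 2 effects were equal. The median of the fatty acid oxidation list was 0.98 in the RV and 0.67 in the LV, that of collagens -1.74 and -1.66, and that of interferon-inducible GTPases 1.12 in both. The cell cycle list had medians of -0.08 in the RV and -1.02 in the LV, and no member differed between the ventricles by the test. Acta1 had a wide gap between the ventricles, with log2 3.16 in the RV and 0.27 in the LV, and that difference did not pass the test (adjusted p = 0.722).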

How the data were processed

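RNA of 28 heart libraries was sequenced, and the 12 RV libraries were analysed here with the LV libraries of the same animals. The authors trimmed the reads and estimated transcript abundance with Salmon 1.8.0 on GRCm39, according to the paper and the submitters' processing notes. The deposited tables hold estimated counts per gene, which need not be whole, and TPM, which the authors' quantification scales by transcript length and library. The library kit is given as a stranded total RNA kit with depletion of ribosomal RNA, while the labels name polyA RNA.

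Estimated counts were rounded and filtered with edgeR's filterByExpr (minimum count 10), scaled by TMM and fitted with edgeR 4.0.16 in R 4.3.3 by quasi-likelihood, with 4 groups of 12 RV libraries in 1 fit and the contrasts 6E13 minus cKO and 6E13 minus WT. P-values were adjusted by Benjamini-Hochberg over all 17307 genes, and an adjusted p under 0.05 was called. Where the text prints an adjusted p with no tool, it is from this edgeR fit. Alternatives used limma 3.58.1 on log2(TPM + 1), with or without centring (centring was chosen after seeing the data), DESeq2 1.42.0, other filters, length offsets, sex as a covariate, and fits without single libraries. Leaving out WT or 3E13 libraries (and cKO libraries for the WT contrast) was also added after seeing the data. Mitochondrial shares were compared by exact permutation. Nothing in the labels says more than that libraries of a group came from different animals. Counts that name no gene symbol made up at most 0.000971% of a library.

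The ventricle difference used the animal number, which labels give for both ventricles, as a block. Deviations from the group mean correlated between the ventricles of an animal in all 12 animals (r from 0.09 to 0.58), and each RV library matched best the LV library of its own animal. Named genes were Pkp2, the transgene and Esr1, the 15 largest rises and falls among called protein-coding genes with at least 5 CPM and no overlap, in each list the members of smallest adjusted p (up to 5), the genes the study names, and any called difference between ventricles. The 26 pathway lists and 14 marker lists matched 713 of 713 genes and were described by counts and medians. The groups compared and the lists were chosen with earlier results of these data known. The fits were first tested on simulated data. No pair of libraries of these groups agreed within sampling noise (lowest chi-square per degree of freedom 29.3 over 9 pairs). Each group held both sexes. Some genes are not reported here by name.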

Additional observations from a re-analysis of the deposited data

Results flagged for a closer look

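Among 270 values tested in cKO RV, where 4 libraries allow the test, 20 had 1 library whose gap to the nearest other library exceeded the 95% critical value of Dixon as a ratio to the group's range. Chance flags about 1 in 20 such values. The 6E13 and WT groups, of 3 libraries, were not tested. No explanation was tested for any of these.

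Library cKO 264 stood apart for 4 genes and 1 summed list. Serpina3n was at 1413 CPM there and at 191 to 196 CPM in the other cKO libraries (ratio of gap to range 0.996). Mmp3 was at 63.2 CPM, against 11.7 to 19.7 CPM (0.844). Mrc1 was at 188 CPM, against 116 to 123 CPM (0.912), and Mcm2 was at 8.61 CPM, against 4.82 to 5.04 CPM (0.943). The summed level of chemokines, complement and innate sensors was 4280 CPM, against 2835 to 3009 CPM (0.880).

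Library cKO 177, which also had the highest TMM factor, was low for Efnb3, at 3.14 CPM against 14.15 to 16.02 CPM (0.854), Nlrc5, at 1.74 CPM against 3.40 to 3.63 CPM (0.882), Hspb6, at 140.2 CPM against 277 to 300.4 CPM (0.851), and Hspa8, at 609 CPM against 721 to 740.5 CPM (0.855). The same library was high for S100a9, at 2.32 CPM against 0.386 to 0.603 CPM (0.888), Trbc2, at 0.957 CPM against 0.541 to 0.603 CPM (0.850), and S100b, at 2.80 CPM against 2.51 to 2.54 CPM (0.893).

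Library cKO 257 was high for the atrial gene Bmp10, at 424.8 CPM against 0.232 to 56.2 CPM (0.868), Acta1, at 45.0 CPM against 13.7 to 17.2 CPM (0.889), and H2-DMa, at 0.648 CPM against 0 to 0.0862 CPM (0.867). It was low for Mertk, at 24.6 CPM against 36.5 to 37.3 CPM (0.933), and Gpm6a, at 5.96 CPM against 9.63 to 10.1 CPM (0.892). Library cKO 180 was high for the adipocyte genes Cfd, at 15.8 CPM against 0 to 1.39 CPM (0.912), and Cidec, at 5.47 CPM against 0 to 0.842 CPM (0.846), and for the haemoglobin gene Hba-a2, at 31.8 CPM against 5.16 to 9.19 CPM (0.849).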

How the results depend on the processing

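The count of genes that differed between 6E13 RV and cKO RV was 3825 in the main test and 2039 to 3989 without single libraries, and limma on log2(TPM + 1) called 6806. The count against WT was 151, and it was 633 with DESeq2, 266 with no low-count filter, 41 with sex as a covariate, 15 with limma on log2(TPM + 1), 15 with centring, and 15 to 279 without single libraries. The ventricle difference gave 0 calls with the replicate block, 0 without the block and 0 to 3 without single animals. The difference in mitochondrial share was 12.48 percentage points, 12.37 on TPM (exact permutation p = 0.0571) and 11.03 to 14.2 without single libraries, where 0.05 cannot be reached (exact permutation p of 0.0667 to 0.1).

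Genes that changed sign on log2(TPM + 1) included Pcca (-0.08), Bhlhe41 (-0.01), Hspa8 (-0.14), Mef2a (-0.22), Jup (-0.17) and Cacna1c (-0.03), and with centring Klrb1c (0.12) and Krt19 (0.00). Under limma on log2(TPM + 1) the balance of calls turned in the desmosome (9 calls), glycolysis (15), clock (5), heat shock (5), adrenergic (7) and cardiac transcription factor (4) lists. Centred limma, chosen after seeing the data, kept the direction of the main test in each of these lists. It gave 9 higher and 2 lower (desmosome), 8 and 2 (glycolysis), 7 and 1 (clock) and 2 and 0 (heat shock). Adrenergic genes gave 6 and 3 there, and cardiac transcription factors 3 and 0. The T, NK and B cell list gave 2 calls with centring and 0 to 1 without single libraries, and the adrenergic list 5 to 9. Of the other values of single genes under alternatives, 4869 kept direction and side of the threshold, 216 lost the call and 72 gained it, and the cause was not tested. Groups of 3 and 4 libraries limit the precision.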
